A study of Drosophila melanogaster with 42 samples.

Results

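The circadian clock genes of *Drosophila* were followed here through 11 oligonucleotide probes of 10 genes: *Clk*, *cyc*, *per*, *tim*, *vri*, *Pdp1*, *cwo*, *cry*, *jet* and *dco*. They are every probe whose symbol, in the array's annotation or in the current gene table, is one of these names, out of 16320 probes of which 12913 carry 1 gene symbol (12165 different genes). *tim* had 2 probes, numbered 10563 and 13283, and each other gene had 1. Altogether 42 two-color arrays were used. The study measured RNA of newly eclosed adults to find genes that differ between the sexes or depend on the sex determination genes *tra*, *dsx* and *fru*. By the labels the adults were 0 to 24 h old, and by the study's methods those for heads were frozen at 8 to 24 h. Each array gives, for a probe, the log2 ratio of 1 sample over the other on the same slide, so a value of 1 means a 2-fold higher signal and the level of a gene on its own is not known.

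The heads compared were of wild-type females against males, in the strains Berlin (4 arrays) and Canton S (4 arrays). XX *tra* pseudomales, *tra1* over the deficiency Df(3L)st-j7, were compared with Canton S females on 4 arrays. XX *dsxD* pseudomales, which carried *dsxD* and *Sb* over *dsxm+r15* and so make the male form of DSX, were compared with Canton S females on 4 arrays. The *dsx* null animals, *dsxd+r3* over *dsxm+r15*, were compared with Canton S flies of their own chromosomal sex, females for XX and males for XY, on 4 arrays each. All XX mutants also carried *y*, *w* and a *ubi-gfp* transgene marked with *w+* on the X chromosome. Males that lack the *fru P1* products were *w*; *fruw12/frucham5* against *w*; Berlin males (4 head arrays) or *fru4-40/fruP14* against Canton S males (4 head arrays). The central nervous system (CNS), brain with ventral nerve cord, was compared between Canton S females and males (4 arrays), between *fruw12/frucham5* and *w*; Berlin males (3 arrays) and between *fru4-40/fruP14* and Canton S males (3 arrays). About 100 heads or 20 CNSs were pooled per sample. The mutants and the wild types are different stocks, so genotype and stock cannot be told apart. The paper adds that *fru4-40/fruP14* also removes *fru P2* transcripts, and that some differences may come from this loss. The deficiency chromosomes may also leave genes near *tra* or *fru* in 1 copy, and whether a clock gene is among these was not tested.

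In the fly clock, CLK and CYC bind DNA together and switch on *per*, *tim*, *vri*, *Pdp1* and *cwo*. PER and TIM return to the nucleus and block CLK and CYC, VRI and PDP1 act on *Clk* in opposite directions, and CWO represses the genes that CLK and CYC activate. CRY, a blue-light receptor, and JET, an F-box protein, bring about the loss of TIM in light, while DCO, a casein kinase also called Doubletime, marks PER for degradation. The clock runs in a small set of brain neurons and in the photoreceptors, glia and fat body of the head, and the RNA of most of these genes, though not of *cyc* or *dco*, cycles over the day. Flies for head samples were collected at Zeitgeber time (ZT, hours after lights on) 2 and frozen at ZT 10. With 1 time of day, a changed mean level and a shifted phase cannot be told apart, nor, in whole tissue, can fewer cells of a type and less RNA per cell. The time of the CNS dissections is not given in the sources used here.

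Signed ratios are given as female over male or mutant over wild type. The yolk protein gene *Yp1*, made in the female fat body, stood at log2 6.64 in wild-type heads, −6.13 in *tra* heads and 4.82 in XY *dsx* null heads, and *fru* probe 16173 at −0.85 in *fru* heads, each with an adjusted p under 0.15. *fru* probe 7797 was at −0.56 in the *fru* CNS (SE 0.136, adjusted p 0.412). Arrays carried values for 36.0% to 72.9% of the probes. Both dye orientations were used in each comparison, but in the CNS the arrays of opposite orientation ran against each other, with a median Pearson r across probes of −0.41 between the sexes and −0.516 for *fru*. For *fru* CNS arrays the orientation also goes with the allele combination, which cannot be told apart from it. In heads this median r lay between 0.206 and 0.571. Probes measured on fewer than 75% of a comparison's arrays were not tested, and a probe was called at an adjusted p under 0.15 (limma, Benjamini-Hochberg over all tested probes), the threshold the study set for most comparisons. For *fru* heads the study set a stricter one. The error given with a mean is limma's SE.

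Of 88 pairs of a clock probe and a comparison, 73 could be tested and 12 were called, 11 of them higher in the mutant and 1 lower in females. The calls fell in 5 of the 8 comparisons. In *tra* heads 4 of 9 tested clock probes were higher, for *per*, *tim*, *vri* and *Pdp1*, where 9.55% of all 9070 tested probes were called and 5.04% were higher. In XX *dsx* null heads 3 of 10 were higher, for *tim*, *Pdp1* and *cry*, where 21.5% of all tested probes were called and 11.7% higher. The same 3 probes, of 9 tested, were higher in XY *dsx* null heads, where 25.7% were called and 13.4% higher. In *fru* heads 1 of 8, *dco*, was higher, against 11.6% of all probes called and 6.77% higher. In wild-type heads 1 of 11, *jet*, was lower in females, against 9.08% called and 3.98% lower. In *dsxD* heads 0 of 10 were called, against 5.97% of all probes, and 4 of the 10 had an unadjusted p under 0.05. In the CNS 0 of 8 were called between the sexes, against 0.0602%, and 0 of 8 for *fru*, against 0.269%, with 0 clock probes at an unadjusted p under 0.05 in either. Counted in either direction, the shares in the *dsx* null, *fru* and wild-type head comparisons are near those of all probes. The *dsx* null calls were all higher, and 3 of 10 and 3 of 9 lie above the 11.7% and 13.4% of all probes called higher. No test of the clock genes as a list was made.

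**Figure D1:**
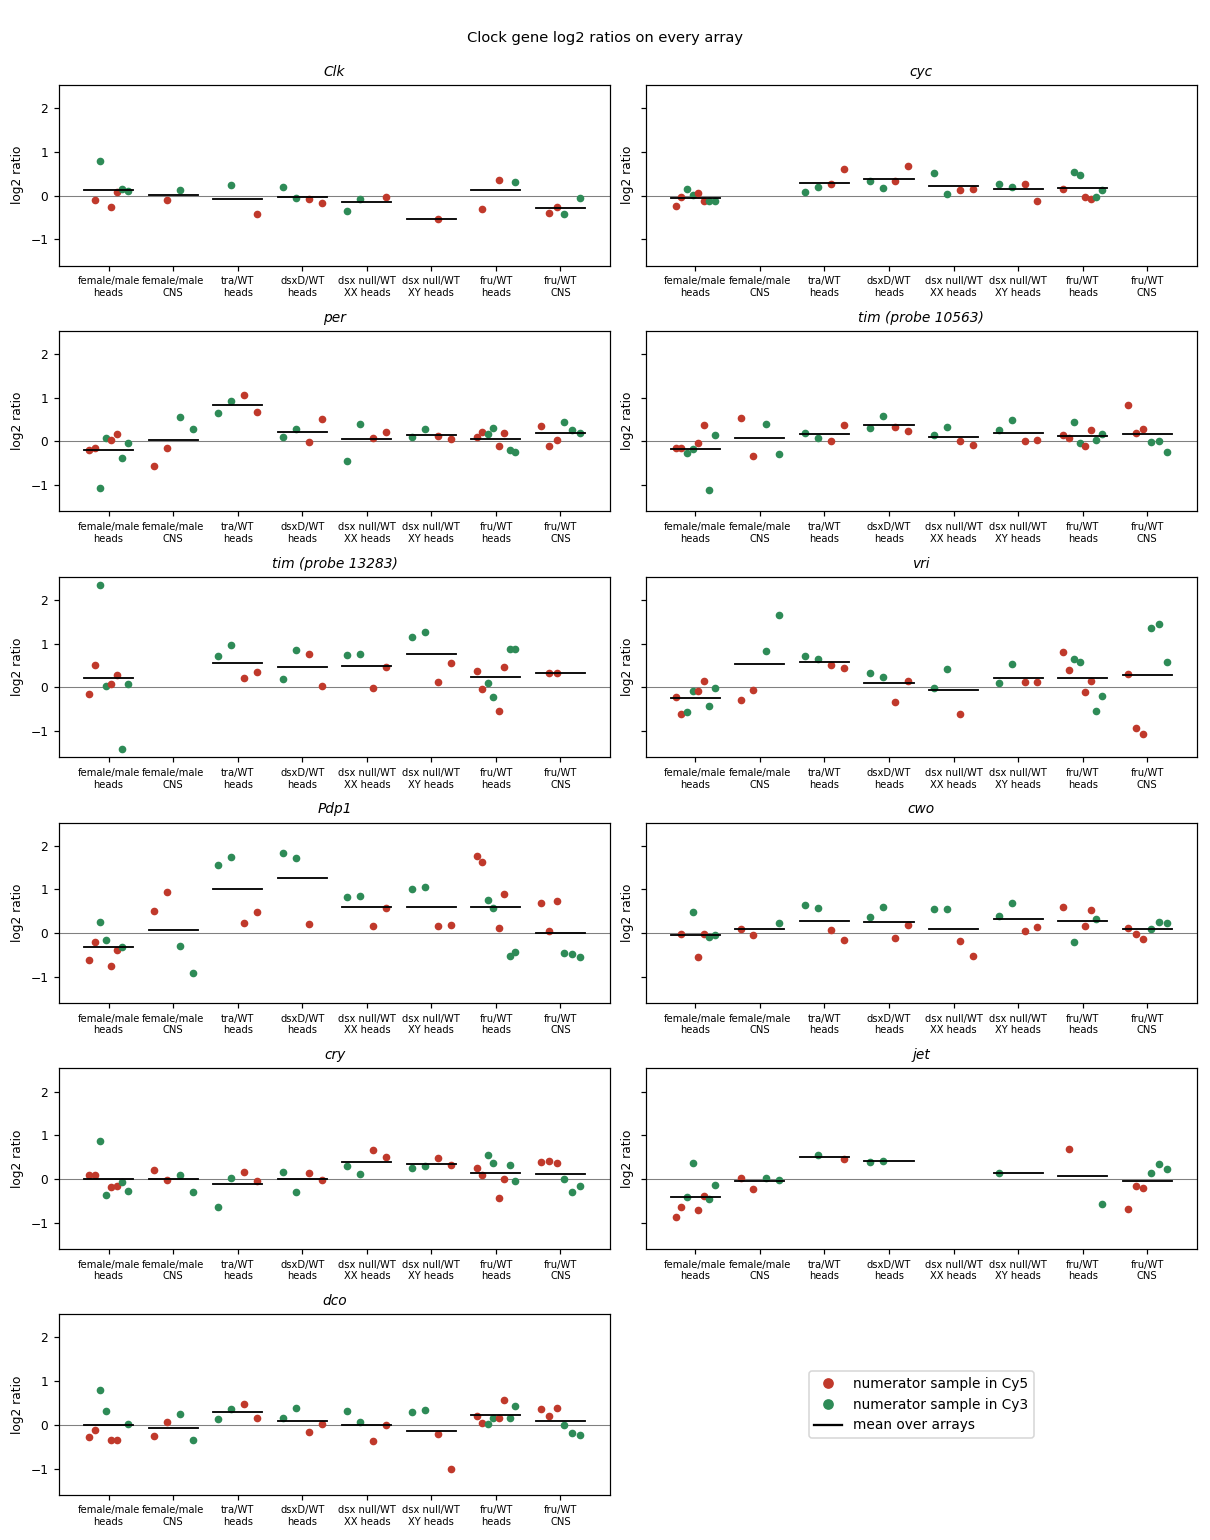
Log2 ratio (vertical axis) of each clock gene probe on every array, in the 8 comparisons along the horizontal axis. Points are arrays, red where the numerator sample (female or mutant) was labelled with Cy5 and green where it was labelled with Cy3, and black lines are means. *per* lies at 0.66 or above on all 4 *tra* arrays, while *Pdp1* and *vri* split by dye in several comparisons.

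The activators gave no call. *Clk* had a value on 25 of 42 arrays and could be tested in 3 comparisons, where its means were 0.13 (SE 0.125) in wild-type heads, −0.02 (SE 0.105) in *dsxD* heads and −0.15 (SE 0.12) in XX *dsx* null heads. On the 4 *dsxD* arrays it read 0.20, −0.05, −0.07 and −0.17. These values straddle 0. *cyc*, the constitutive partner of *Clk*, had no value on any CNS array. It was above 0 on all 4 *tra* arrays (0.09, 0.19, 0.26 and 0.61), all 4 *dsxD* arrays (0.33, 0.18, 0.34 and 0.68) and all 4 XX *dsx* null arrays (0.53, 0.03, 0.12 and 0.16). Among the 8 comparisons its mean was largest in *dsxD* heads, at 0.38 (SE 0.115, adjusted p 0.178, not called). Between females and males *cyc* was among the steadiest members, with 8 arrays from −0.25 to 0.14 and a mean of −0.05 (SE 0.0642).

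*per*, the founding gene of the clock and the only member on the X chromosome, rose in *tra* heads. It read 0.66, 0.93, 1.05 and 0.67 on the 4 arrays, a mean of 0.83 (SE 0.124, adjusted p 0.00542), which is a 1.78-fold higher signal in the *tra* pseudomales than in Canton S females. Every array lay well above 0, and the call held with each array left out (adjusted p 0.00794 to 0.0225). By a 2-sided t-test with Benjamini-Hochberg adjustment it was lost (adjusted p 0.181), as were the other 3 calls in *tra* heads. The study's own t-test in this comparison took a single direction and was not run here. The means with *tra* RNA in Cy5 (0.86) and in Cy3 (0.79) were close. Both groups in this comparison have 2 X chromosomes. In the other mutant heads *per* was not called. It read 0.10, 0.29, −0.02 and 0.51 in *dsxD* heads (mean 0.22, SE 0.12), −0.46, 0.39, 0.07 and 0.21 in XX *dsx* null heads (mean 0.05, SE 0.145), and 0.10, 0.29, 0.13 and 0.05 in XY *dsx* null heads (mean 0.14, SE 0.0979). Between females and males, 8 arrays ran from −1.06 through a median of −0.09 to 0.16, with 5 below 0, and the mean of −0.19 (SE 0.119) did not pass (adjusted p 0.438).

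The *tim* probes differed in which tests were called, and a difference between the probes was not tested. Probe 13283 rose in *tra* heads, where it read 0.72, 0.96, 0.21 and 0.34 (mean 0.56, SE 0.149, adjusted p 0.0728). It rose in XX *dsx* null heads, at 0.75, 0.75, −0.00 and 0.48 (mean 0.49, SE 0.143, adjusted p 0.0752), and in XY *dsx* null heads, at 1.14, 1.25, 0.12 and 0.56 (mean 0.77, SE 0.195, adjusted p 0.0447). In all 3 the first pair of arrays, with mutant RNA in Cy3, was higher than the pair in Cy5, which did not overlap it. The call in *tra* heads was lost without replicate 1 (adjusted p 0.197) or 2 (0.258), and that in XX *dsx* null heads without replicate 1 (0.191), 2 (0.155) or 4 (0.182). Probe 10563 was not called in any of its 8 tests. Its means in the same comparisons were 0.17 (SE 0.121), 0.10 (SE 0.103) and 0.20 (SE 0.117). It was above 0 on all 4 *dsxD* arrays, at 0.31, 0.59, 0.34 and 0.24, with a mean of 0.37 (SE 0.104, adjusted p 0.157, not called). Probe 13283 was also above 0 on all 4, at 0.20, 0.85, 0.76 and 0.03. Its mean there was 0.46 (SE 0.162, adjusted p 0.252, not called). Whether the probes measure different transcripts of *tim* is not known from the files.

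The arrays of wild-type heads were least steady for *tim*. Probe 13283 read 2.34 on Canton S replicate 3 and −1.41 on Berlin replicate 7, against −0.15 to 0.52 on the other 6. Probe 10563 read −1.11 on Berlin replicate 7 and between −0.26 and 0.38 on the rest. Canton S replicate 3 had the widest spread of log2 ratios of the 8 arrays and Berlin replicate 7 the fewest values (5881 probes). Neither *tim* mean, 0.22 (SE 0.284) for probe 13283 and −0.17 (SE 0.129) for probe 10563, passed the test.

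*vri* encodes a repressor of *Clk* and is itself switched on by CLK and CYC. In *tra* heads it rose with *per*: it read 0.71, 0.66, 0.51 and 0.44, a mean of 0.58 (SE 0.117, adjusted p 0.0212), a 1.5-fold higher signal. All 4 values were positive in both orientations. The call held with each array left out (adjusted p 0.0375 to 0.089), but not by the 2-sided t-test (adjusted p 0.162). In *dsxD* heads it read 0.33, 0.24, −0.34 and 0.14 and its mean was 0.09 (SE 0.135). In the XX *dsx* null heads 3 arrays gave −0.01, 0.42 and −0.60. In the XY *dsx* null heads the values were 0.10, 0.53, 0.13 and 0.12 (mean 0.22, SE 0.114, not called). In wild-type heads *vri* was lower in females on 7 of 8 arrays, from −0.62 through a median of −0.16 to 0.14, with a mean of −0.24 (SE 0.0921, adjusted p 0.194) that was not called.

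*Pdp1*, whose product activates *Clk*, gave the largest mean ratios of the set in *tra*, *dsxD* and XX *dsx* null heads and was split by dye orientation. In *tra* heads it read 1.56 and 1.75 with mutant RNA in Cy3 but 0.23 and 0.48 in Cy5, for a mean of 1.01 (SE 0.245, adjusted p 0.0503). In *dsxD* heads it read 1.84 and 1.71 in Cy3 and 0.21 on the 1 Cy5 array with a value, for a mean of 1.25 (SE 0.328, adjusted p 0.154) that was just outside the threshold. XX *dsx* null heads gave 0.82 and 0.85 in Cy3 and 0.16 and 0.58 in Cy5 (mean 0.60, SE 0.134, adjusted p 0.0329). XY *dsx* null heads gave 1.01 and 1.07 in Cy3 and 0.16 and 0.19 in Cy5 (mean 0.61, SE 0.186, adjusted p 0.0799). Every one of these values was above 0, but the 2 orientations never overlapped. The call in XY *dsx* null heads was lost without replicate 1 (adjusted p 0.176) or 2 (0.203), the 2 Cy3 arrays. In *dsxD* heads *Pdp1* was called once replicate 4, which held no value for it, was left out (adjusted p 0.13). In wild-type heads 6 of 7 arrays were below 0, from −0.75 through a median of −0.32 to 0.26, with a mean of −0.31 (SE 0.111, adjusted p 0.166). Without Canton S replicate 3, the 1 array above 0, this mean was −0.41 and was called (adjusted p 0.0304). On the arrays with mutant RNA in Cy5 alone the *Pdp1* call was lost in *tra* heads (mean 0.36, adjusted p 0.267) and in XY *dsx* null heads (0.17, adjusted p 0.27). It held in XX *dsx* null heads (0.37, adjusted p 0.0882). On the Cy3 arrays alone the means were 1.66 in *tra* heads (adjusted p 0.000395) and 1.04 in XY *dsx* null heads (adjusted p 0.00549). In XX *dsx* null heads the Cy3 mean was 0.84 (adjusted p 0.0506). In the fit with orientation as a term *Pdp1* was called in *tra* heads (adjusted p 0.00136). It was also called in XX (adjusted p 0.00916) and XY (0.00171) *dsx* null heads. Of all probes 16.2%, 35.0% and 50.5% were called in these fits, in the same order. In *dsxD* heads the *Pdp1* estimate in that fit was 0.99 in place of 1.25, and rests on 1 Cy5 array.

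*cwo* could be tested in 7 comparisons and was called in 0. In *tra*, *dsxD* and both *dsx* null comparisons the Cy3 arrays read from 0.37 to 0.69 and the Cy5 arrays from −0.52 to 0.20. The 2 sets did not overlap, as for *Pdp1*. Its means in these heads were 0.29 (SE 0.156), 0.26 (SE 0.134), 0.10 (SE 0.193) and 0.32 (SE 0.13).

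**Figure D2:**
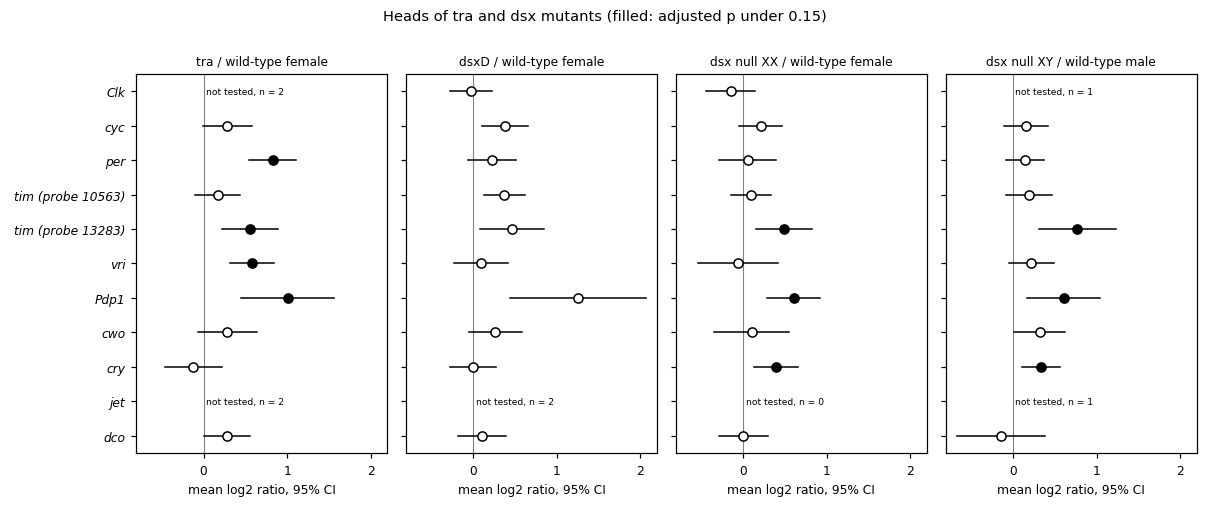
Mean log2 ratio of each clock gene probe (horizontal axis) with its 95% confidence interval from limma, in *tra*, *dsxD*, XX *dsx* null and XY *dsx* null heads over Canton S heads. Filled points were called at an adjusted p under 0.15. *per* and *vri* are filled in *tra* heads alone and *cry* in both *dsx* null comparisons alone.

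*cry*, the light receptor that acts on TIM, rose in both *dsx* null comparisons. It read 0.30, 0.11, 0.65 and 0.51 in XX heads (mean 0.39, SE 0.114, adjusted p 0.0772) and 0.24, 0.30, 0.49 and 0.32 in XY heads (mean 0.34, SE 0.0982, adjusted p 0.0679), 1.31-fold and 1.26-fold higher than in Canton S flies. All 8 values were above 0, and for *cry* the Cy5 arrays were the higher ones. Both calls were lost without replicate 3 (adjusted p 0.179 in XX and 0.155 in XY) or 4 (0.223 and 0.197). In *tra* heads *cry* read −0.63, 0.03, 0.16 and −0.04, and in *dsxD* heads 0.15, −0.30, 0.14 and −0.01, with means of −0.12 (SE 0.15) and −0.00 (SE 0.115). Between females and males its mean was 0.00 (SE 0.117), with Canton S replicate 3 at 0.86 and the other 7 arrays from −0.37 to 0.10.

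*jet* was the 1 clock gene called between the sexes. In Berlin heads its female over male ratio was −0.71, −0.39, −0.46 and −0.15, and in Canton S heads −0.87, −0.64, −0.41 and 0.37. It was thus lower in females on 7 of 8 arrays, with a mean of −0.41 (SE 0.118, adjusted p 0.0903), a 1.33-fold lower signal. The means of the strains were alike, −0.43 in Berlin and −0.39 in Canton S, and their difference of −0.04 had a 95% interval of −0.57 to 0.50. The orientations differed: the mean was −0.65 with female RNA in Cy5 and −0.16 in Cy3. The call was lost without Canton S replicate 1 (adjusted p 0.205) or 2 (0.21) and without Berlin replicate 5 (0.169), 6 (0.152) or 7 (0.166). In the CNS *jet* read 0.01, −0.23, 0.02 and −0.02 between the sexes, a mean of −0.05 (SE 0.169). The difference of CNS less Canton S heads was 0.33, with a 95% interval of −0.22 to 0.88. In mutant heads *jet* was seldom measured, on 2 *tra* arrays (0.55 and 0.47), 2 *dsxD* arrays (0.39 and 0.42), 1 XY *dsx* null array (0.14), 0 XX *dsx* null arrays and 2 *fru* arrays (0.69 and −0.57), and it was not tested there.

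*dco* rose slightly in *fru* heads. In *fruw12/frucham5* heads it read 0.16, 0.56, 0.16 and 0.43, and in *fru4-40/fruP14* heads 0.21, 0.03, 0.02 and 0.16. All 8 arrays were above 0, with a mean of 0.22 (SE 0.0755, adjusted p 0.137), a 1.16-fold higher signal. This call was the closest to the threshold, and at an adjusted p under 0.05 0 of 8 clock probes were called in *fru* heads. It was lost without *fru4-40/fruP14* replicate 1 (adjusted p 0.204) or 4 (0.188) and without any of the *fruw12/frucham5* replicates (0.185 to 0.254). In *tra* heads *dco* was also above 0 on all 4 arrays, at 0.12, 0.37, 0.48 and 0.16 (mean 0.28, SE 0.121, not called). In XY *dsx* null heads it read 0.29 and 0.34 with mutant RNA in Cy3 and −0.21 and −1.01 in Cy5.

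Direct tests between mutants asked whether a change seen in one genotype differed from that in another. The *tra* and *dsxD* animals are both XX with a male-like form, but the male FRU proteins are made in *tra* and not in XX *dsxD* animals. The ratio of *per* was higher in *tra* than in *dsxD* heads by 0.61 (95% interval 0.24 to 0.97), and that of *vri* by 0.49 (0.11 to 0.87). Neither was called (adjusted p 0.388 and 0.7), and 0 of 9 clock probes were, against 0.417% of all probes. With dye orientation as a term *per* alone passed (difference 0.61, adjusted p 0.138). So *per* and *vri* passed the test in *tra* and not in *dsxD* heads, but a difference between the genotypes was not shown at the threshold. Between *dsxD* and XX *dsx* null heads 0 of 10 clock probes were called, against 5.75% of all probes. *cry* was lower in *dsxD* by 0.40 (95% interval −0.76 to −0.03, adjusted p 0.304). Between XX and XY *dsx* null heads 0 of 9 were called, against 0.751%, and the ratio of *Pdp1* differed by −0.00 (−0.55 to 0.55). With the replicate number as a block, 0 clock probes were called in each of these 3 tests. Between Berlin and Canton S sex differences the count was 0 of 9, against 0% of all probes.

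The *fru* allele combinations differed in heads, where 23.9% of all 6821 tested probes were called. Of 8 clock probes tested, 3 were called, all lower in *fruw12/frucham5* than in *fru4-40/fruP14* relative to their own wild types, where 11.9% of all probes were. *vri* read −0.11, 0.14, −0.54 and −0.21 in *fruw12/frucham5* and 0.80, 0.41, 0.66 and 0.57 in *fru4-40/fruP14*, and the groups did not overlap. The difference was −0.79 (SE 0.16, adjusted p 0.0088). *Pdp1* read 0.11, 0.89, −0.51 and −0.44 in *fruw12/frucham5* and 1.76, 1.63, 0.76 and 0.57 in *fru4-40/fruP14*. The difference was −1.17 (SE 0.339, adjusted p 0.0452), with all 4 Cy5 arrays above the Cy3 arrays of the same combination. *cyc* averaged −0.00 in *fruw12/frucham5* (4 arrays, −0.08 to 0.13) and 0.39 in *fru4-40/fruP14* (3 arrays, 0.14 to 0.54), a difference of −0.39 (SE 0.144, adjusted p 0.112). The *cyc* call was lost without *fruw12/frucham5* replicate 5 (adjusted p 0.164), 6 (0.203) or 7 (0.173), while those of *vri* and *Pdp1* held with each array left out (adjusted p up to 0.0274 and 0.118).

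Each allele combination was hybridized against another wild-type strain, so alleles and reference strain cannot be told apart. The loss of *fru P2* transcripts in *fru4-40/fruP14* cannot be told apart from either. Within *fru4-40/fruP14* alone 4 of 8 clock probes were called against Canton S males, where 20.2% of all probes were: *Pdp1* (1.18, SE 0.205, adjusted p 0.0119), *vri* (0.61, SE 0.102, adjusted p 0.0104), *cyc* (0.39, SE 0.128, adjusted p 0.119) and *cry* (0.32, SE 0.106, adjusted p 0.111). Within *fruw12/frucham5* alone 2 of 9 were called against *w*; Berlin males, where 17.0% of all probes were, *dco* (0.33, SE 0.106, adjusted p 0.108) and *cwo* (0.34, SE 0.121, adjusted p 0.145). Over all 8 arrays the mean of *Pdp1* was 0.60 (SE 0.245) and that of *vri* 0.21 (SE 0.143), and neither passed.

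**Figure D3:**
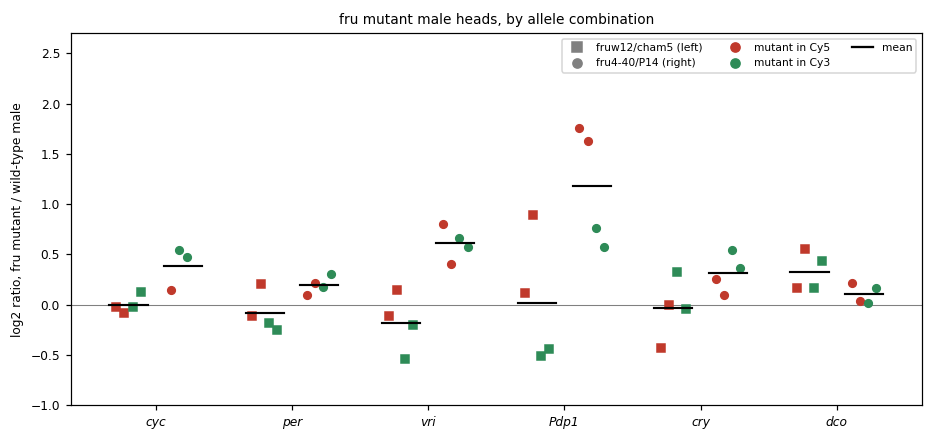
Log2 ratio of *fru* mutant over wild-type male heads (vertical axis) for 6 clock genes, with *fruw12/frucham5* (squares, left) and *fru4-40/fruP14* (circles, right), 1 point per array and lines at the means. Red and green mark mutant RNA in Cy5 and Cy3. *vri* does not overlap between the combinations.

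In the CNS the spread of *vri* and *Pdp1* was wide. Between the sexes *vri* read −0.29 and −0.07 with female RNA in Cy5 and 0.83 and 1.65 in Cy3 (mean 0.53, SE 0.282), while *Pdp1* read 0.52 and 0.93 in Cy5 and −0.29 and −0.90 in Cy3 (mean 0.06, SE 0.267). In the *fru* CNS *vri* read 0.29, −0.92 and −1.08 in *fruw12/frucham5*, all in Cy5, and 1.35, 1.45 and 0.58 in *fru4-40/fruP14*, all in Cy3. *Pdp1* read 0.70, 0.06 and 0.73 in *fruw12/frucham5* and −0.45, −0.48 and −0.55 in *fru4-40/fruP14*. Between the sexes the orientations did not overlap for either gene, and *vri* was lower in Cy5 where *Pdp1* was higher. In the *fru* CNS the same split is one of orientation and of allele combination, which cannot be told apart. *per* was above 0 on 5 of 6 *fru* CNS arrays, from −0.11 through a median of 0.23 to 0.45 (mean 0.20, SE 0.0942, not called). The means of *tim* probe 10563, *cry*, *dco*, *jet* and *cwo* lay between −0.05 and 0.18 in the *fru* CNS. Against heads, 0 of 6 clock probes differed for *fru*, against 0.973% of all probes, and 0 of 7 for sex, against 0.130%. *vri* was higher in the CNS than in Canton S heads by 0.91 in its sex ratio (95% interval 0.14 to 1.67, adjusted p 0.999).

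Other genes tied to the clock were taken from 2 lists. Of 25 clock regulators (among them kinases, phosphatases, ubiquitin enzymes, RNA-binding proteins and transcription factors) 15 to 17 probes were tested per comparison. In *tra* heads 2 of 15 rose, *Usp8* (log2 1.68, SE 0.131, adjusted p 0.000152), a deubiquitinase that acts on CLK, and *Fbxl4* (log2 1.21, SE 0.136, adjusted p 0.00113), an F-box gene under clock control. The same 2 rose among 17 in *dsxD* heads (log2 0.91 for *Usp8* and 0.84 for *Fbxl4*). *Fbxl4* alone was called among 16 in XX *dsx* null heads (0.56) and among 16 in *fru* heads (0.40). The highest mean log2 ratio of the 16 in XX *dsx* null heads was 1.48, for another probe that was not called. In XY *dsx* null heads *Usp8* rose (0.78) and *slmb*, whose product binds phosphorylated PER, fell (−0.51, adjusted p 0.04), of 17. Of all probes 9.55% were called in *tra*, 5.97% in *dsxD*, 21.5% in XX and 25.7% in XY *dsx* null and 11.6% in *fru* heads. Between the sexes 0 of 17 were called in heads and 0 of 16 in the CNS, and 0 of 16 in the *fru* CNS.

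Of 14 outputs and rhythmic head genes, 9 to 12 probes were tested. The neuropeptide gene *Pdf*, expressed in the ventral clock neurons, fell in both *dsx* null comparisons by the same amount (log2 −0.49, adjusted p 0.0634 in XX and 0.0927 in XY), and *ITP*, another neuropeptide of clock neurons, fell by 0.59 and 0.67 on the log2 scale. *Slob*, a channel-binding protein with rhythmic RNA, was lower in females in wild-type heads (−0.35, SE 0.0896, adjusted p 0.0627) and rose in XX (0.58) and XY (0.41) *dsx* null heads. *e* (ebony), which acts in glia, rose in XX (0.93) and XY (0.79) *dsx* null heads and in *fru* heads (0.52). *Ugt35B1* had the largest ratios, 3.81 in *tra*, 3.59 in *dsxD*, 3.76 in XY *dsx* null and 3.20 in *fru* heads. In XX *dsx* null heads no tested output stood above 0.93, with 11 of 12 probes tested. In wild-type heads the tested outputs ran from −0.35 to 0.18. Counted by list, 3 of 12 outputs rose in *tra* heads and 2 of 12 in *dsxD* heads, 3 of 11 rose and 2 fell in XX *dsx* null heads, 5 of 12 rose and 2 fell in XY *dsx* null heads, and 2 of 12 rose in *fru* heads. The shares of all tested probes called were 9.55% in *tra*, 5.97% in *dsxD* and 11.6% in *fru* heads. They were 21.5% in XX and 25.7% in XY *dsx* null heads. Between the sexes 1 of 10 outputs was called in heads, against 9.08% of all probes. In the CNS 0 of 9 were called between the sexes and 0 of 10 for *fru*.

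Markers of the photoreceptors, which hold a clock of their own, moved with the mutant groups. Of 11 photoreceptor probes, 7 were called higher in *tra* heads (median of all 11, 0.83), 6 in *dsxD* heads (0.68), 10 in XX *dsx* null heads (1.34), 9 in XY *dsx* null heads (0.99) and 3 in *fru* heads (0.26). In *tra* heads *trp* and *chp* stood at 2.05 and 2.01, while *Arr2* stood at 0.06. The medians of all tested probes were within 0.03 of 0 in these comparisons. Of all tested probes, 9.55% were called in *tra*, 5.97% in *dsxD* and 11.6% in *fru* heads. The share was 21.5% in XX and 25.7% in XY *dsx* null heads and 9.08% between the sexes. In lists this small, a count of 1 or 2 is not set apart from these shares. Between females and males 1 of 11 was called, lower in females (median −0.26). Neuron markers were called lower in 4 of 6 probes in XY and 2 of 6 in XX *dsx* null heads, 1 of 6 in *dsxD* heads and 3 of 6 in female heads. Fat body markers, *Yp1* among them, moved in both directions: 3 rose and 4 fell of 9 in *tra* heads (median −0.55), 3 rose and 3 fell of 9 in *dsxD* heads (−0.26), 5 rose and 3 fell of 9 in XX *dsx* null heads (0.73), 7 rose and 1 fell of 9 in XY *dsx* null heads (1.63), and 2 rose and 1 fell of 7 in *fru* heads (−0.14). In female heads 4 of 8 were higher and 1 lower (1.51). Of the glia markers 1 of 5 fell in *tra*, *dsxD* and XY *dsx* null heads, 2 of 5 fell in *fru* heads (median −0.34), 2 of 5 were lower in female heads (−0.25) and 1 of 4 rose in XX *dsx* null heads. Of 8 muscle probes 4 were higher in *fru* heads (median 0.21) and 4 in female heads (0.40), 3 fell in XY *dsx* null heads, 1 fell in *tra* and in *dsxD* heads, and 1 rose and 1 fell in XX *dsx* null heads. The part of RNA from these cell types in the clock gene values was not tested.

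**Figure D4:**
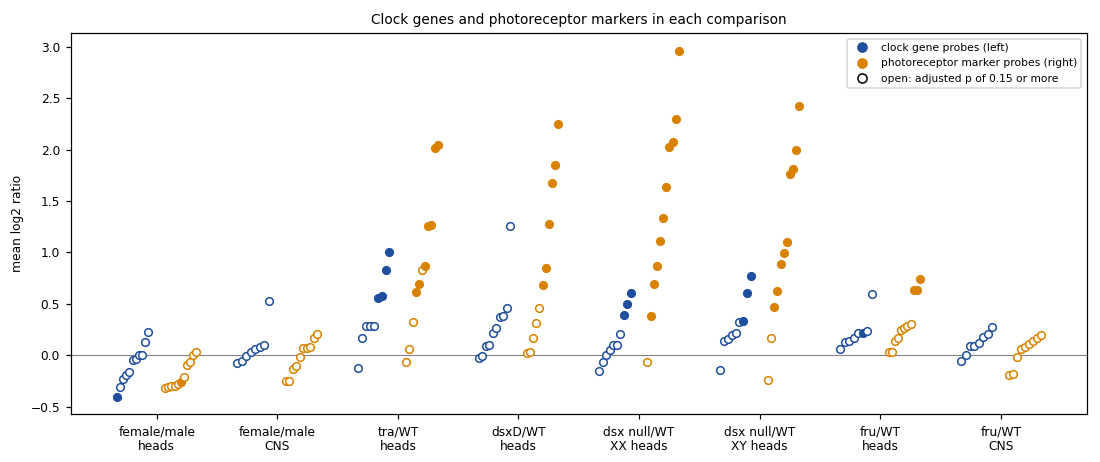
Mean log2 ratio (vertical axis) of the tested clock gene probes (blue, left) and photoreceptor marker probes (orange, right) in each of the 8 comparisons, with filled points called at an adjusted p under 0.15. The photoreceptor medians are 0.83, 0.68, 1.34 and 0.99 in *tra*, *dsxD*, XX and XY *dsx* null heads, each above most clock probes of the same comparison.

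The members with the most calls, 3 each, were *tim* probe 13283 and *Pdp1*. Across the 6 comparisons in which *tim* probe 13283 was tested, the probes whose means followed it most closely were those of *SelG* (Pearson r 0.99), *MagR* (0.989), *CG2604* (0.974), *ttm50* (0.965) and *btsz* (0.964), among 5174 probes. Across all 8 comparisons those closest to *Pdp1* were *CG17746* (0.96), *EMC6* (0.957), *crc* (0.954), *CG32647* (0.946) and *Hrs* (0.939), among 4362 probes. None of these 10 is a clock gene of the lists used here. The points share arrays, reference strains and dye layout, and these likenesses are a description over 6 or 8 points.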

How the data were processed

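The deposited values are log2 ratios made by the authors: spots judged poor by eye were removed, spots with over 75% of pixels above the background by more than 1 SD were kept, and ratios were normalized by lowess in Bioconductor, in versions not given in the sources used here. The file holds channel 2 over channel 1; ratios with wild type on top were turned round, and no further normalization was done. Missing values are spots the authors removed, so *Clk* and *jet*, with few values, were seldom tested. With limma 3.58.1 (R 4.3.3), probes measured on 75% or more of a comparison's arrays were tested against 0, or between comparisons, with Benjamini-Hochberg adjustment over all tested probes. The study's methods name independent biological samples per array. The number of arrays limits the precision. Where fewer arrays had a value, the fit used those alone and imputed none.

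Genes were named by gene number (12273 probes), sequence accession (116) or the array's own symbol (524). All member probes are described. From the other circadian lists only called probes were to be named, those with the smallest p, at most 5 a list and comparison. Some called outputs within that limit are counted but not named. The gene *trpl* is in both the output list and the photoreceptor list. For the nearest probes the rule asked for 8 comparisons, which *tim* probe 13283 lacks; 6 were used, and *Pdp1*, with as many calls, was added after its values were seen. The members and lists were chosen with earlier results of these data known. The methods' positive false discovery rate was replaced by Benjamini-Hochberg values. The fits were tested on simulated data with known shifts. The simulated noise was independent between arrays and held no dye effect, so how the fits deal with dye splits or shared deviations was not tested.

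Same-numbered arrays deviated together from their group means in *tra* and *dsxD* (r 0.195 to 0.477), *dsxD* and XX *dsx* null (0.23 to 0.456) and XX and XY *dsx* null (0.32 to 0.505), and were taken as pairs in an alternative fit. Arrays of another number but the same dye layout gave r of 0.444 to 0.489, 0.191 to 0.37 and 0.213 to 0.433 in the same order, so pairing and dye layout cannot be told apart. The sample labels give an age of 0 to 24 h and the methods 8 to 24 h. Where titles and channel descriptions of the *fru* arrays name different strains, the channel descriptions were used.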

Additional observations from a re-analysis of the deposited data

Results flagged for a closer look

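Of 75 groups of 4 arrays with a value on each, 6 held an array far from the other 3. Chance alone flags about 1 in 20 groups. Berlin female over male head replicate 5 stood apart for *Clk* (−0.26, others 0.08 to 0.15), *cyc* (0.06, others −0.12 to −0.11) and *cwo* (−0.54, others −0.09 to −0.02). Berlin replicate 7 stood apart for *tim* probe 13283 (−1.41, others 0.08 to 0.29). XY *dsx* null replicate 2 stood apart for *vri* (0.53, others 0.10 to 0.13), and Canton S CNS replicate 2 for *jet* (−0.23, others −0.02 to 0.02).

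The *fru* effect differed between *fruw12/frucham5* and *fru4-40/fruP14* heads for *cyc* (−0.39, adjusted p 0.112), *vri* (−0.79, adjusted p 0.0088) and *Pdp1* (−1.17, adjusted p 0.0452) by limma's test of the difference. In the *fru* CNS every array of one combination lay on the other side of 0 from every array of the other for *Pdp1* (mean 0.50 in *fruw12/frucham5* and −0.49 in *fru4-40/fruP14*, difference 0.99), *cry* (0.39 and −0.16, difference 0.55), *dco* (0.32 and −0.14, difference 0.46) and *jet* (−0.35 and 0.24, difference −0.59). These 4 differences were not tested, and there the allele combination and the dye orientation cannot be told apart.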

How the results depend on the processing

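None of the 12 clock gene calls and 3 called differences changed direction under the alternatives run. Single orientations gave calls of opposite sign for other pairs: *dco* in XY *dsx* null heads (−0.61 with mutant RNA in Cy5, 0.32 in Cy3), *cwo* in XX *dsx* null heads (−0.35 and 0.56), and *Pdp1* (0.50 and −0.49) and *jet* (−0.35 and 0.24) in the *fru* CNS, where orientation goes with the alleles. Percentages in brackets are shares of all tested probes called under the same setting, and a range is the counts with 1 array left out. The count of clock probes called was 1 in wild-type heads (9.08%). It became 2 with a value required on every array (17.0%), dye orientation as a term (12.8%), array weights (21.2%) or Berlin alone (3.93%). It became 0 at an adjusted p under 0.05 (3.04%), by a 2-sided t-test with Benjamini-Hochberg adjustment (6.69%) or in Canton S alone (0.415%). The range was 0 to 2. In *tra* heads 4 (9.55%) became 6 with the dye term (16.2%), 2 at 0.05 (5.27%) and 0 by the t-test (1.41%). The range was 3 to 4. In *dsxD* heads 0 (5.97%) became 1 with a value on every array (7.96%) or on at least 2 arrays (5.81%). It became 5 with the dye term (20.4%) and 2 with array weights (6.31%), with a range of 0 to 1. In XX *dsx* null heads 3 (21.5%) became 1 at 0.05 (9.74%) and 0 by the t-test (10.9%), with a range of 1 to 2. In XY *dsx* null heads 3 (25.7%) became 6 with the dye term (50.5%) and 4 with array weights (28.8%) or values on all arrays (30.9%). It became 1 at 0.05 (12.7%) and 1 by the t-test (16.2%), with a range of 2 to 3. In *fru* heads 1 (11.6%) became 0 with at least 2 arrays (7.56%), at 0.05 (4.38%) or by the t-test (8.17%). It became 2 with the dye term (14.9%), 4 in *fru4-40/fruP14* alone (20.2%) and 2 in *fruw12/frucham5* alone (17.0%). The range was 0 to 1. In the *fru* CNS 0 became 5 in either allele combination alone, where each holds 1 dye orientation and 53.8% (*fruw12/frucham5*) and 60.0% (*fru4-40/fruP14*) of all probes were called. The dye term gave 1 call for *tra* less *dsxD* (1.92%) and 1 for *dsxD* less XX *dsx* null (14.7%). For the *fru* allele combinations in heads it gave 5 (35.3%) in place of 3 (23.9%). There the range without the term was 2 to 3. Fitted with a replicate block, the clock probes called stayed at 0 in all 4 differences so fitted, while calls over all probes were 73 in place of 34 for *tra* less *dsxD*. For sex in the CNS and Canton S heads, same-numbered arrays did not deviate together (r −0.21 to 0.24) and share only a number. Whether extracts were shared between arrays was not known. The causes of these changes were not tested.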
